A study of Mus musculus with 4 samples.

Results

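CD3+ T cells from MC38 tumours were compared between a mouse group given X-Ray+O-IMDQ and a group given PBS, with 1 RNA-seq library each. MC38 is a mouse colon carcinoma line that was grown as a tumour, and the submitters describe X-Ray+O-IMDQ as a prodrug activated by radiotherapy. Both libraries came from cells taken 72 h after the second treatment, and the labels give no mouse strain, sex, age or dose. They do not say how many mice or tumours went into a library, nor how CD3+ cells were sorted. No library of X-ray alone or of the prodrug alone is in these labels, so the 2 parts of the treatment cannot be told apart. Genes were taken when they had 20 or more counts in either T cell library and a symbol, which gave 11058 of the 21959 listed genes. Of these, 5303 had 300 or more counts in both libraries, and they are called well counted here.

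Interferons are secreted signals that act through JAK kinases and STAT transcription factors. They switch on a broad set of antiviral genes in most cell types, T cells included. CD8+ T cells in tumours kill through granzymes and perforin, secrete interferon-gamma, and carry inhibitory receptors such as PD-1 after long stimulation. Ionising radiation activates p53, a transcription factor whose targets halt the cell cycle or start cell death.

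The PBS library held 18649824 counts and the treated library 18463944. The PBS library had a count for 12051 genes and the treated one for 10768. The title of the PBS sample numbers it 2 while its description points to the read file numbered 1; the description was followed, and 1 more PBS library in the table, which carries the number 2, matched no description and was not used here. If the title rather than the description is right, the PBS values below belong to another PBS library of the same kind. With a single library on each side there is no replicate error, no p-value is given, and every statement below compares 2 libraries and not 2 conditions. Ratios are treated over PBS on the log2 scale after scaling to library size, and levels are in CPM, counts scaled to a common library size. The 95% intervals and the floor of 3 counts, equal to 0.161 CPM with PBS and 0.162 CPM with treatment, cover counting error only and no spread between libraries. The sources name no molecular identifiers that would tell PCR copies apart, so copies may be counted as separate reads. Where a library had 0 counts, the fold is set at this floor and written as "at least"; the 2-sided interval of such a gene starts somewhat nearer 0. In bulk RNA fewer cells of a type and less RNA per cell cannot be told apart.

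T cell markers were abundant and CD8 transcripts far outnumbered those of CD4 in both libraries. All 10 measured T cell markers were well counted and none was 2-fold apart, with a summed level of 14349 CPM with PBS and 14777 CPM with treatment. Cd3d, a chain of the T cell receptor complex, had 3522 and 2720 CPM, and Thy1, a surface protein of mouse T cells, had 2154 and 1463 CPM. Cd8a, the alpha chain of the CD8 co-receptor, had 46523 and 47563 counts, a log2 ratio of 0.02. Cd4, the co-receptor of helper T cells, had 17 and 252 counts, 14.7-fold higher in the treated library. Per length, Cd8a had 686 and 708 FPKM and Cd4 0.226 and 3.39 FPKM. Foxp3, the transcription factor of regulatory T cells, had 99 and 0 counts, at least 33.4-fold lower.

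A call, higher or lower, needed a 2-fold difference or more and an interval that left out 0. Of the 11058 genes, 2014 were called higher (18.2%), 2808 lower (25.4%) and 6236 neither, with a median log2 ratio of -0.08. Many of these calls rest on absent reads: 276 of the higher genes had 0 counts with PBS and 873 of the lower genes had 0 with treatment. Among the 5303 well-counted genes, 420 were higher (7.92%), 307 lower (5.79%) and 4576 neither, with a median of 0.05. That excess of higher genes turned with the scaling: 325 higher and 405 lower under upper-quartile scaling, 356 and 359 after centring on the median, and 333 and 356 after a trend with gene length was removed. Upper-quartile scaling moved every log2 ratio by -0.09 and centring by -0.05, so higher calls with ratios just above 1 ended there, as is said beside the named genes. The well-counted genes were mostly close together, with 62.9% within 1.5-fold, and only 16 were 4-fold higher and 8 were 4-fold lower. Counts of calls in the lists below are to be read beside the 18.2% and 25.4% of all genes. For well-counted members the shares to read them beside are 7.92% and 5.79%.

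How far apart a gene lay depended on its counts. Of the 1602 genes with 20 to 99 counts in the higher library, 79.1% were at least 2-fold apart and called, and 43.9% had 0 counts in the other library. Of the 987 genes with 3000 to 9999 counts, 8.71% were called and none had 0 counts in the other. A gene read many times in one library and never in the other was therefore common here. Calls on single genes below 300 counts are given with this in view, and no replicate shows how often they would recur.

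**Figure D1:**
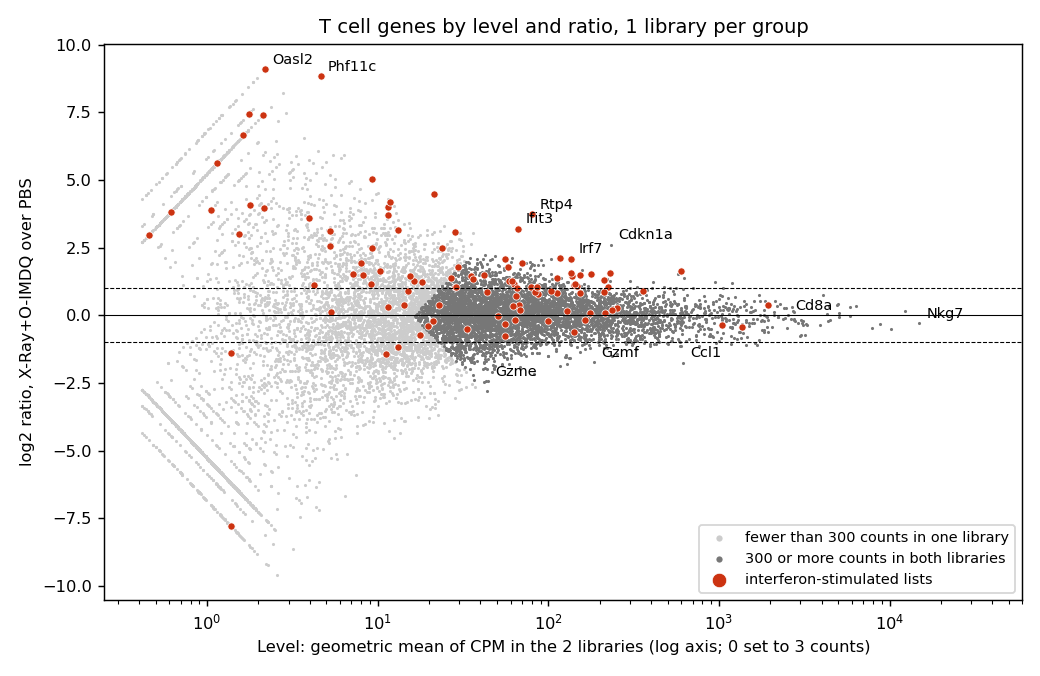
Log2 ratio of treated over PBS (vertical axis) against level in CPM on a log axis (horizontal axis), 1 point per gene for the 11058 genes. Light grey points have fewer than 300 counts in a library, dark grey points are the 5303 well-counted genes, red points belong to the interferon-stimulated lists, and dashed lines mark 2-fold. The spread narrows with level, and most red points lie above 0.

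Interferon-stimulated genes stood higher in the treated T cell library. Across 9 lists of such genes, 105 of 111 were measured, and 65 were higher, 4 lower and 36 neither, with a median log2 ratio of 1.22, beside -0.08 over all genes. Among the 62 well-counted members 31 were higher and none was lower. Their median was 0.94, beside 0.05 over all well-counted genes. The summed level of the lists was 9691 CPM with PBS and 15186 CPM with treatment. The lists were drawn up with earlier results of these data known, so their direction is a description. Of 644 biological process terms with at least 15 well-counted genes in the deposited annotation, "cellular response to interferon-beta" had the highest median, 0.83 over 27 genes, of which 10 were higher and 0 lower. Related terms stood lower, with "response to virus" at 0.43 and "defense response to virus" at 0.30 over 89 genes. The term "cellular response to interferon-gamma" was near the background at 0.09 over 50 genes, with 6 higher and 2 lower.

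Among antiviral effectors and the Ifit proteins, which bind foreign RNA, all 5 Ifit genes and 10 of 22 effectors were higher and none was lower. The call of Bst2 ended under upper-quartile scaling and after centring. Rtp4, an interferon-induced regulator of viral infection (ENSMUSG00000033355, chromosome 16, 23339041 to 23432972), had 406 counts with PBS and 5510 with treatment, or 10.2 and 140 FPKM (counts per length and library). At 13.4-fold (log2 interval from 3.60 to 3.89) it was the well-counted gene furthest apart in either direction. Ifit3 (ENSMUSG00000074896, chromosome 19, 34560931 to 34566131) had 405 and 3759 counts, 9.18-fold higher. Its near copy Ifit3b had 463 and 1306 counts, and because reads of such copies can be split between them, the division between the pair is uncertain. Ifit2 went from 53 to 862 counts and Ifit1 from 186 to 1048. The dynamin-like GTPases Mx1 and Mx2, which block viral entry and replication, had 30 and 0 counts with PBS and 995 and 305 with treatment, so Mx2 was at least 100.5-fold higher.

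Not all effectors shared this direction, and the 3 with the most counts in the PBS library, Shisa5, Ifitm1 and Ly6e, were not called. Ifitm1, a membrane protein that restricts viral entry, had 1573 CPM with PBS and 1178 with treatment, a log2 ratio of -0.42. Ly6e, a lipid-anchored surface protein, had 1193 and 920 CPM, and Shisa5 had a ratio of 0.38. Per length, Ifitm1 had 1422 FPKM with PBS against 10.2 FPKM for Rtp4. Ifi27l2a, another abundant member, was 3.11-fold higher, from 341 to 1058 CPM. Bst2, or tetherin, which holds budding virus at the cell surface, had a log2 ratio of 1.04, Samhd1, which depletes nucleotides needed by retroviruses, 0.85, and Ifitm3 0.18.

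The motif GAAANNGAAA, read on both strands (TTTCNNTTTC on the other), is the core of the element that IRF factors bind at interferon-stimulated genes. It was searched in the 250 bases before the start of each gene in RefSeq promoters of build GRCm38.p6, which differs from the build of the deposited gene positions, so positions of the builds are not joined. Of all 27025 genes with a RefSeq promoter, 3.46% held it, and of the interferon list members 38 of 78 matched did (48.7%). Among list members it stood in 22 of 49 higher genes (44.9%) and in 14 of 26 that were neither (53.8%), so within the lists the share was not higher among the higher genes. Among well-counted genes outside the lists, 12 of 311 higher genes (3.86%), 5 of 248 lower (2.02%) and 119 of 3705 neither (3.21%) held it. A match is a description of letters and not a shown binding site.

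The following 6 promoter stretches are shown because they hold the motif, because they belong to well-counted genes higher in the treated library, and because they show how near copies share it. Each runs 5′ to 3′ on the gene's own strand, and capitals mark the motif.
Ifit3, chr19:34583323-34583432, plus strand: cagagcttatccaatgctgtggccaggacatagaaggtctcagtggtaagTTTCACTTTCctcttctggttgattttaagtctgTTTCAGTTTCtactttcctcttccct
Ifit3b, chr19:34607719-34607828, plus strand: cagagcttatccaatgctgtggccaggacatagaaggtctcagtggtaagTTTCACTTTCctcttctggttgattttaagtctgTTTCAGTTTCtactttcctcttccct
Igtp, chr11:58199472-58199555, plus strand: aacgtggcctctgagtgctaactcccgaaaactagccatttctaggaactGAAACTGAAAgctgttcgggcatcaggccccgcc
Isg15, chr4:156200837-156200946, minus strand: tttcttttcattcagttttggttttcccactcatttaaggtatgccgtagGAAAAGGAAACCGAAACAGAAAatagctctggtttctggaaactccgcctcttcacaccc
Ifi206, chr1:173491319-173491408, minus strand: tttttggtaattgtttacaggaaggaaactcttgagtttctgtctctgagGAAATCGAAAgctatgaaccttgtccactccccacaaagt
Ifi213, chr1:173599286-173599395, minus strand: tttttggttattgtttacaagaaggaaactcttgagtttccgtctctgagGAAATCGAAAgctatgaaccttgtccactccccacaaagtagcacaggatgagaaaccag
The stretches of Ifit3 and Ifit3b were the same at 110 of 110 bases, yet their log2 ratios were 3.20 and 1.48. Those of Ifi206 and Ifi213 were the same at 87 of 90 bases, with ratios of 1.78 and 1.39. In Isg15 the capitals cover 3 overlapping matches, while Igtp, Ifi206 and Ifi213 hold 1 match each and Ifit3 and Ifit3b hold 2.

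The oligoadenylate synthetases make a small messenger of antiviral defence, and 6 of 8 genes of this list were higher with none lower. Oasl1, with 0 and 513 counts, was at least 169-fold higher at the floor of 3 counts (log2 7.40, with an interval from 7.10), and Oas2 went from 0 to 151. Oasl2 had 1 and 551 counts (log2 ratio 9.09, interval from 6.61 to 14.40). Oas1a had 51 and 949 counts. None of the 8 was well counted, so all these ratios start from a low PBS level.

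All 6 genes of the ISG15 system, a ubiquitin-like protein and the enzymes that attach or remove it, were higher. Under upper-quartile scaling 4 were, without Uba7 and Isg20, and after centring or removal of the length trend 5 were, without Uba7. Isg15 (ENSMUSG00000035692, chromosome 4, 156283912 to 156285253) had 498 and 2121 counts, 4.21-fold higher. Its conjugating enzyme Ube2l6 had a ratio of 1.47 and its activating enzyme Uba7 one of 1.04. Usp18, which removes ISG15 and dampens interferon receptor signalling, had 84 and 1891 counts, 22.3-fold higher.

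Of 10 cytosolic sensors of nucleic acid, 9 were higher and none was lower, and 8 were higher under upper-quartile scaling, after centring or after removal of the length trend, which ended the call of Trim25. Zbp1, which senses nucleic acid in the Z form, had 133 CPM with PBS and 333 with treatment. The RNA sensors Ddx58 (RIG-I) and Ifih1 (MDA5) had ratios of 1.46 and 1.22, and their adaptor Mavs had 81 and 731 counts. Cgas, the cytosolic DNA sensor, had only 8 and 138 counts, whereas its partner Sting1 was well counted and had a ratio of 0.15.

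Transcription factors of interferon signalling were less uniform, with 3 higher, 1 lower and 7 neither of 11. Irf7, the amplifier of type I interferon (ENSMUSG00000025498, chromosome 7, 140842619 to 140846394), had 1216 and 5228 counts, 4.25-fold higher. Irf9, a DNA-binding factor of the interferon response, had 1918 and 5657 counts, and Irf5 had 294 and 1035. Stat2 had a ratio of 0.37, and Irf2, Irf3 and Irf8 lay between -0.02 and 0.40. Batf2 had 216 and 1 counts, the lowest ratio among members of the interferon lists at -7.77, with an interval from -13.08 to -5.28.

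The remaining interferon lists held members of large gene families. In the Ifi200 family of DNA-binding proteins 7 of 11 were higher and none lower. Among the higher ones were Ifi204 with 2 and 355 counts (log2 ratio 7.46, interval from 5.59 to 10.51) and Ifi213 with 1282 and 3398. Of 17 interferon-inducible GTPases, which attack vacuoles of intracellular microbes, 10 were higher and none lower. The calls of Gbp7 and Irgm1 ended under upper-quartile scaling, after centring and after removal of the length trend. Igtp (ENSMUSG00000078853, chromosome 11, 58090382 to 58098417) had 1039 and 4559 counts and Ifi47 had 2468 and 7399. Gbp2 and Gbp4 had ratios of -0.31 and -0.60 and Irgm2 one of -0.76, while Irgm1 was higher with 852 and 1726 counts. Of 15 PARP, Phf11 and Schlafen (Slfn) genes, 9 were higher and 3 lower, with Phf11c at 4 and 1846 counts and Slfn1 at 663 and 2530. The lower ones were Parp11, Parp12 and Slfn9, with ratios of -1.42, -1.15 and -1.37. The Phf11, Slfn, Ifi200 and Tgtp genes have close relatives nearby, and Tgtp1 with 59 and 772 counts beside Tgtp2 with 2133 and 3798 may share reads.

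**Figure D2:**
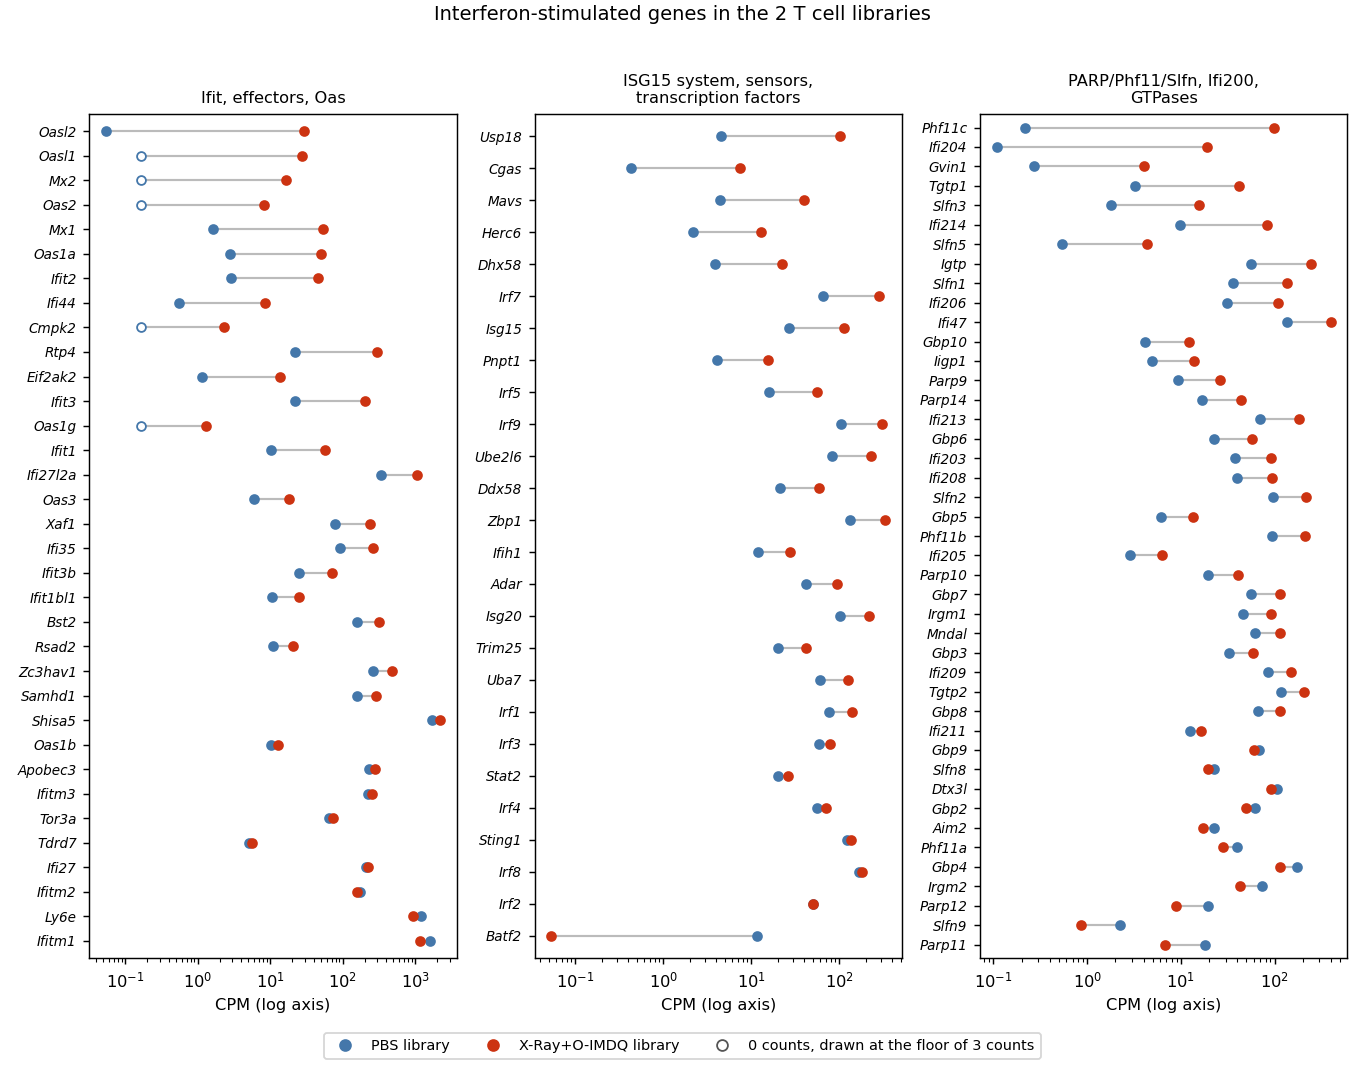
Levels in CPM on a log axis of all but 2 of the 105 measured interferon-stimulated genes, in 3 panels by list, with blue for the PBS library and red for the treated one, sorted by ratio. Open points had 0 counts and are drawn at 3 counts. Over the 105 genes the treated level is the higher in 88 and the lower in 17, and Batf2 shows the widest gap of the latter.

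The receptors and brakes of interferon signalling were not 2-fold apart. None of 13 was called, and the median was 0.31. Ifnar1 and Ifnar2, the type I receptor chains, had ratios of 0.66 and 0.52, Ifngr1, a chain of the interferon-gamma receptor, 0.52, and the inhibitors Socs1 and Socs3 0.32 and 0.37. Of 11 measured genes of endosomal Toll-like receptors and their adaptors, 3 were higher and 2 lower. Traf3, a ubiquitin ligase upstream of interferon induction, had 413 and 1720 counts, and the adaptor Myd88 had a ratio of 0.88. The receptors themselves were scarce: Tlr7 had 105 and 11 counts, Tlr3 81 and 0, and Tlr8 and Tlr9 no more than 2 in either library.

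NF-kB genes, which include feedback inhibitors induced by the factor itself, lay above 0 as a group. All 15 were well counted, and 4 were higher and 0 lower, at a median of 0.80. Nfkbia, the inhibitor I-kappa-B alpha, had 11455 and 27026 counts, 2.33-fold higher. Nfkbie, Nfkbiz and the subunit Nfkb1 had ratios of 1.38, 1.31 and 1.01, and the call of Nfkb1 ended under upper-quartile scaling, after centring and after removal of the length trend. Relb, a subunit of the non-canonical pathway, had a ratio of -0.75, and Rela one of -0.20.

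MHC class I genes, which present peptides to CD8+ T cells and are also interferon targets, were close together. Of 16 genes 1 was higher and 1 lower, with a median of 0.06. Nlrc5, the transactivator of class I genes, had 6119 and 12747 counts, 2.06-fold higher, and this call, the only higher one of the list, ended under upper-quartile scaling, after centring and after removal of the length trend. The heavy chains H2-K1 and H2-D1 had ratios of 0.43 and 0.38, and the light chain B2m -0.05. Erap1, which trims peptides in the endoplasmic reticulum, had 908 and 338 counts. Among non-classical class I genes 3 of 10 were higher, among them H2-T24 with 8 and 409 counts and H2-T10 with 308 and 1139, and Mr1 was lower with 102 and 30.

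**Figure D3:**
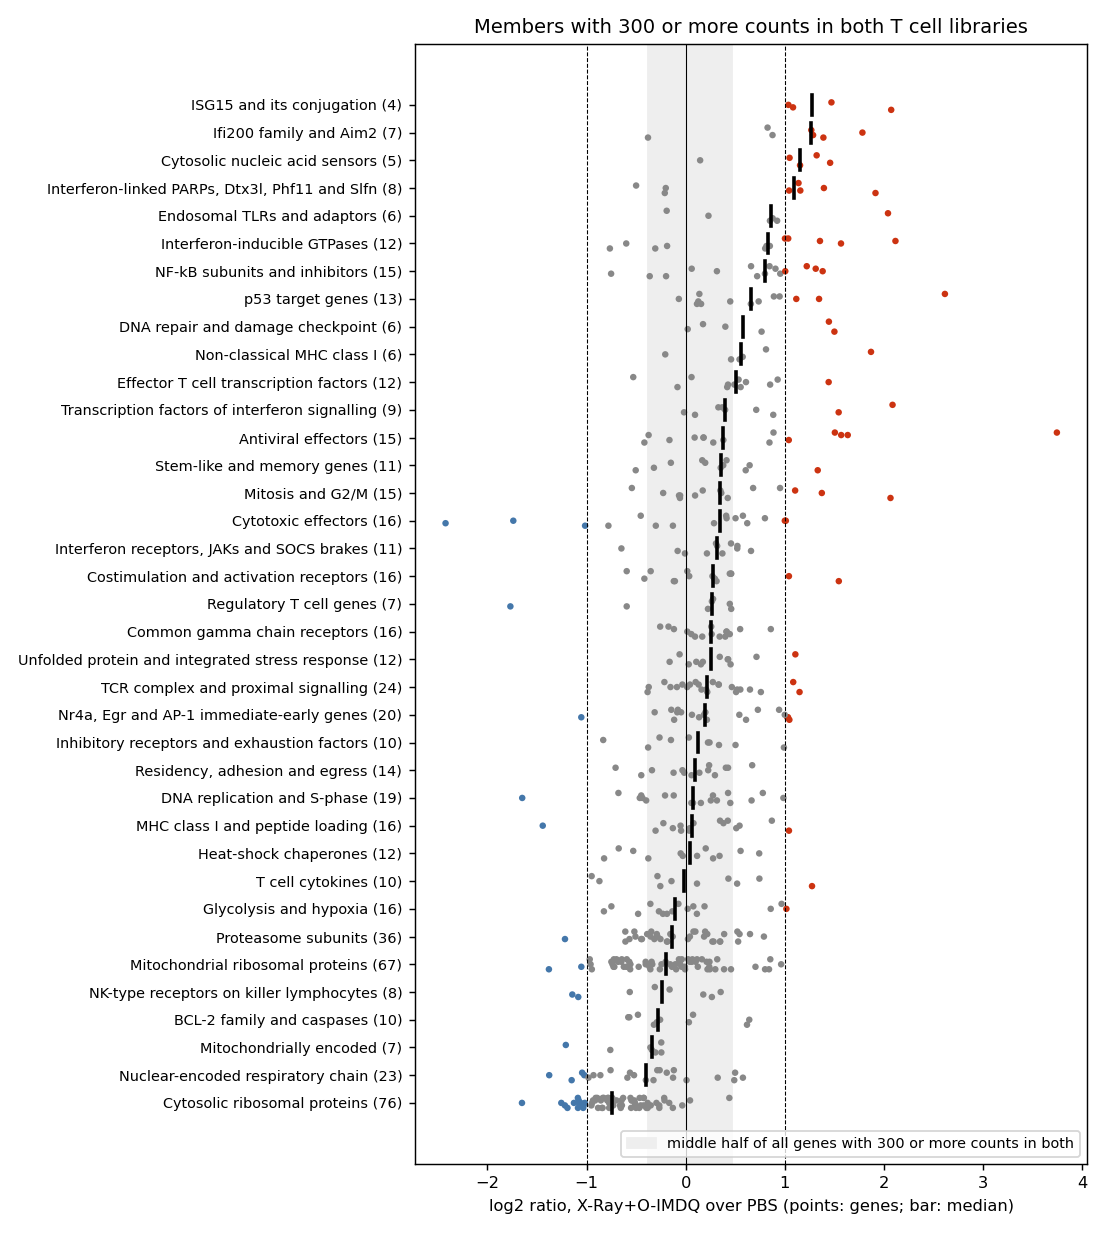
Log2 ratios of well-counted genes in each list with at least 4 of them, 1 point per gene, red when called higher, blue when called lower and grey otherwise. Black bars are list medians, the number of genes is in brackets, and the grey band runs from -0.38 to 0.47, the quartiles of all well-counted genes. The ISG15, Ifi200 and sensor lists lie at the top and cytosolic ribosomal proteins at the bottom.

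Genes of the T cell receptor and its signalling differed little. Of 25 genes 3 were higher and 0 lower. The median was 0.22. Besides Cd4, these were Prkcq and Fyn, kinases that act downstream of the receptor, with ratios of 1.15 and 1.09. The call of Fyn ended under upper-quartile scaling and after removal of the length trend. Lck and Lat, the first kinase and the scaffold of the pathway, had ratios of 0.47 and 0.52, and Cd3e, Cd3g and Cd3d lay between -0.37 and 0.04. Among 17 costimulatory and activation receptors, Cd69 and Cd28 were higher and none was lower. Cd69, an early activation antigen that also holds cells in tissue, had 6249 and 18450 counts, and Cd28, the receptor for CD80 and CD86, had 2933 and 6109. The call of Cd28, at a ratio of 1.04, ended under upper-quartile scaling, after centring and after removal of the length trend. Tnfrsf9 (4-1BB) and Icos, both induced by stimulation, had ratios of -0.11 and 0.04.

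Cytotoxic genes were called both ways. Of 17 genes 3 were higher (17.6%, beside 18.2% of all genes) and 3 lower (17.6%, beside 25.4%), with a median of 0.41. Among the 16 well counted, 2 were higher (12.5%, beside 7.92% of all well-counted genes) and 3 lower (18.75%, beside 5.79%). Gzma, a protease of the lytic granules, had 6692 and 13640 counts, 2.01-fold higher, and Gzmm had 83 and 524. The calls of Gzma and of Serpinb6b, the third higher gene, ended under upper-quartile scaling and after centring, which left 1 higher. Gzmb and the pore-forming Prf1 had 23002 and 13630 counts with PBS and 30977 and 16811 with treatment, ratios of 0.41 and 0.29. In the other direction, Gzme had 1882 and 355 counts and Gzmf 6202 and 1879, which were 5.36-fold and 3.34-fold lower, and Gzmd had a ratio of -1.01, which was -0.98 under total-count scaling and no longer called. These genes lie next to each other on chromosome 14 and are near copies, so how reads were divided among them is uncertain, but all 3 were lower. Gzmc, the next member of the cluster in this list, had a ratio of -0.45. Nkg7, a granule membrane protein and the gene with the most counts in both libraries, took 1.63% of counts with PBS and 1.35% with treatment.

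Of 14 measured receptors and adaptors shared with NK cells, 1 was higher (7.14%, beside 18.2% of all genes) and 5 lower (35.7%, beside 25.4%), with a median of -0.38. Hcst and Fcer1g, which encode the adaptors DAP10 and FcR-gamma, had 1128 and 250 CPM with PBS and 510.6 and 118 CPM with treatment. Klrc2 and Klra7 had ratios of -1.44 and -1.53, and Klrb1c, which encodes NK1.1, had 140 and 0 counts. Klrd1 and Klrk1 (NKG2D), the most abundant receptors of the list by counts, had ratios of -0.16 and 0.18. Hcst and Fcer1g are listed at 722 and 874 bases, and the length of genes moved with the ratio, as given further on.

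Of 13 measured T cell cytokines 3 were higher (23.1%, beside 18.2% of all genes) and 1 lower (7.69%, beside 25.4%). Ifng had 3456 and 5855 counts, a ratio of 0.74, and Tnf one of 0.43. Lta, lymphotoxin alpha, had 719 and 1760 counts, 2.42-fold higher. Il2, the T cell growth factor, had 3 and 199 counts (log2 ratio 6.04, interval from 4.47 to 8.32), and Csf2 had 1 and 88 (6.44, from 3.93 to 11.76). Il10, an inhibitory cytokine, had 46 and 1 counts (-5.54, from -10.87 to -2.99). The chemokines Ccl3, Ccl4 and Ccl5, which killer cells release, lay between -0.26 and 0.11, and Il4, Il13, Il17a and Il21 had 0 counts in both libraries.

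Inhibitory receptors of long-stimulated T cells stayed within 2-fold where they were well counted. Pdcd1, which encodes PD-1, had 18792 and 22463 counts, a ratio of 0.24, Ctla4 0.22, Tigit -0.15, Havcr2 (TIM-3) -0.26 and Lag3 -0.38. Entpd1, or CD39, had a ratio of -0.83 and Cd160 one of 0.99. Of this list of 15, 3 were higher (20%, beside 18.2% of all genes) and 2 lower (13.3%, beside 25.4%). These 5 called genes all had fewer than 300 counts in a library. Tox, the transcription factor of the exhausted state, had 373 and 112 counts and Cd200r1 138 and 65, while Tox2 had 0 and 83, Btla 55 and 273 and Lilrb4a 144 and 449.

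Among effector transcription factors 3 of 17 were higher (17.6%, near the 18.2% of all genes) and 1 lower, at a median of 0.53. Prdm1 (Blimp-1), a factor of terminal effector cells, had 388 and 1067 counts and Eomes 201 and 449, while Tbx21 (T-bet) had a ratio of 0.49. Maf had 14 and 361 counts and Ikzf2 354 and 55. Of 15 stem-like and memory genes 2 were higher and 2 lower (13.3% each, beside 18.2% and 25.4% of all genes). Tcf7 (TCF-1), the factor of stem-like T cells, had 650 and 1656 counts, 2.52-fold higher, and Myb had 46 and 507. Foxo1 and Klf3 were lower, with 755 and 234 counts and 523 and 217, and Il7r had a ratio of 0.17. Of 19 residency and adhesion genes Itga4 was higher, and Itga1 and Zfp683 (Hobit) were lower, with ratios of -2.98 and -3.22, while Cxcr6 and Cxcr3 had ratios of 0.30 and 0.67. In the regulatory T cell list 2 of 14 were higher (14.3%, beside 18.2% of all genes) and 5 lower (35.7%, beside 25.4%). Among its 7 well-counted genes 0 were higher and 1 lower. Il1rl1 (ST2) had 1425 and 423 counts, Areg, a growth factor of tissue repair, 813 and 125, and Ctla4 and Il2ra, which activated CD8+ T cells share, had ratios of 0.22 and 0.45. The 16 measured genes of the common gamma chain receptors and their kinases had no call, with a median of 0.26.

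Immediate-early genes, switched on within minutes of stimulation, had 3 higher and 1 lower of 21. Nr4a1, a reporter of recent antigen receptor signalling, had 13653 and 28101 counts, and Atf3 and Btg2 had ratios of 1.05 and 1.03. Nr4a3, with 1940 and 3925 counts, stood just under the threshold. The 3 higher calls had ratios between 1.02 and 1.05, and 0 were higher under upper-quartile scaling or after centring and 1 after removal of the length trend. By contrast, Fos, Jun, Egr1 and Egr2 lay between -0.12 and 0.18. Ier5 was the lower one, with 2195 and 1070 counts.

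**Figure D4:**
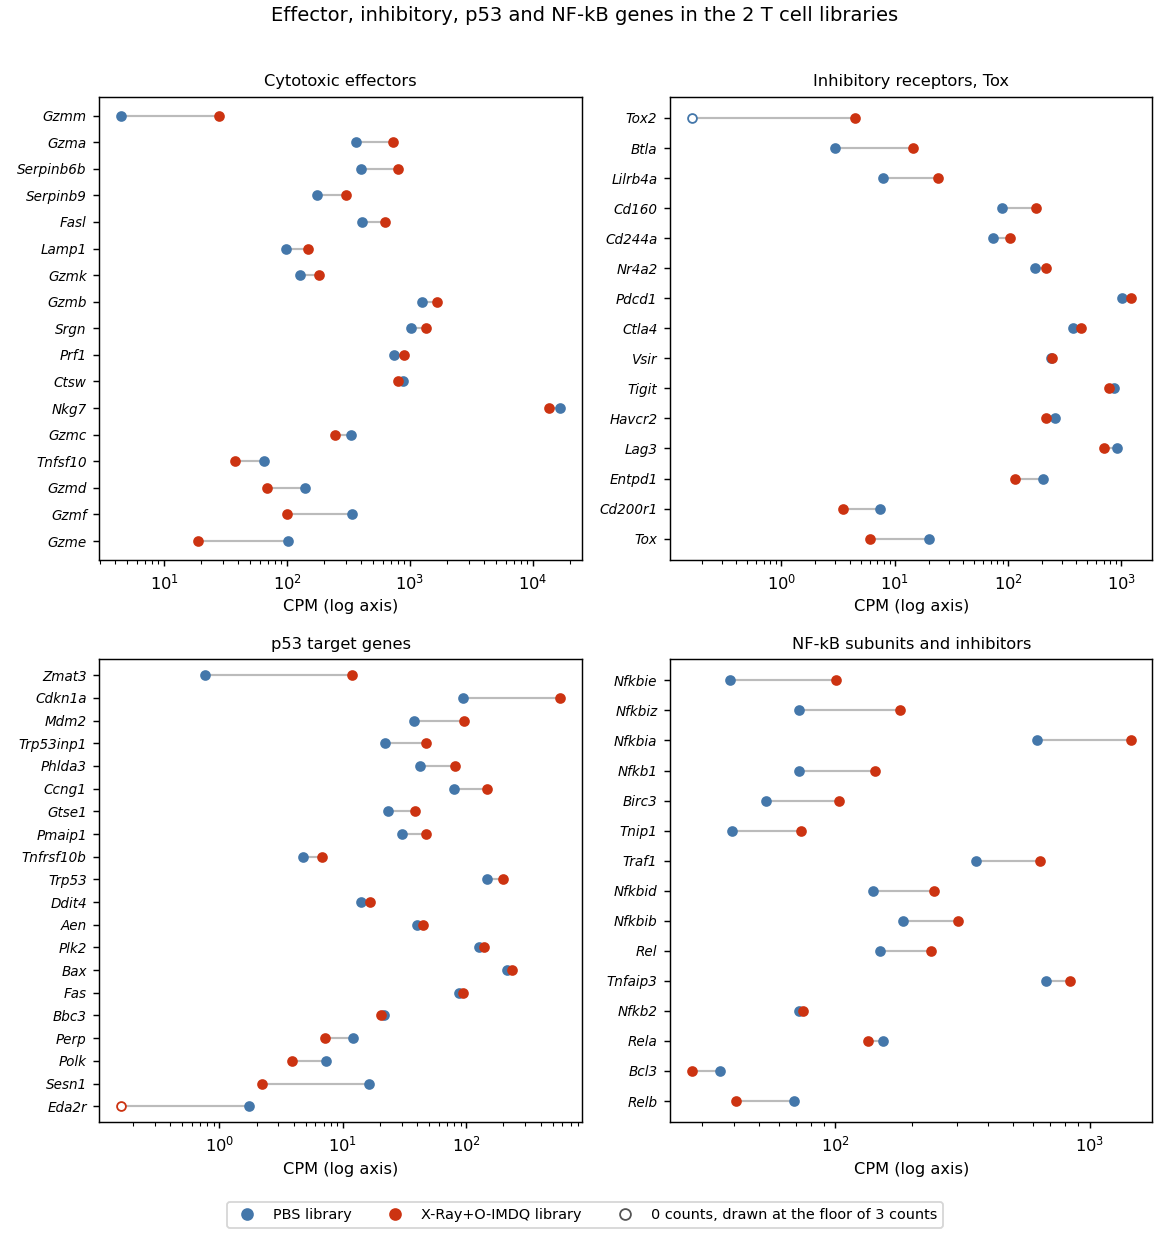
Levels in CPM on log axes of the measured cytotoxic, inhibitory, p53 and NF-kB genes, blue for PBS and red for treated, sorted by ratio within each panel. Open points had 0 counts and are drawn at 3 counts. Gzme, Gzmf and Gzmd lie at the bottom of the cytotoxic panel with red to the left, while Cdkn1a and the NF-kB inhibitors have red to the right.

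Among well-counted targets of p53 a few were higher and none was lower. Of 13 such genes 3 were called higher (23.1%, beside 7.92% of all well-counted genes), and the median was 0.66. Cdkn1a, which encodes the cell cycle inhibitor p21 (ENSMUSG00000023067, chromosome 17, 29309950 to 29319701), had 1725 and 10697 counts, 93.5 and 573 CPM, 6.13-fold higher. Mdm2, the ubiquitin ligase that degrades p53, had 691 and 1777 counts, and Trp53inp1 404 and 886. The death genes of the list were close together, with Bax at 0.13, Fas at 0.11 and Bbc3 (PUMA) at -0.07, and Pmaip1 (NOXA) at 0.66. Over all 20 measured members 4 were higher (20%, beside 18.2% of all genes) and 2 lower (10%, beside 25.4%). The lower ones were Sesn1 with 298 and 41 counts and Eda2r with 32 and 0.

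DNA repair genes were mostly low in counts and went both ways. Of 19 measured 6 were higher (31.6%, beside 18.2% of all genes) and 7 lower (36.8%, beside 25.4%), and only 6 were well counted. Among these, Xrcc6 (Ku70), which binds broken DNA ends, had 431 and 1234 counts, and Trp53bp1 379 and 1044. The lower ones included the damage kinases Atm (181 and 14 counts), Atr (197 and 52) and Prkdc (523 and 71), and Chek2 with 249 and 0. Chek1, the checkpoint kinase of S phase, had 4 and 151 counts. Of 17 BCL-2 family, caspase and necroptosis genes 2 were higher (Ripk1 and Casp1) and 2 lower, Bak1 among them, and none of the 10 well-counted ones was called.

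Genes of cell division were mostly not called. Of 26 mitosis genes 7 were higher (26.9%, beside 18.2% of all genes) and 1 lower, and their median was 0.35. Among the 15 well counted, 20% were higher, beside 7.92% of all well-counted genes. Of 23 S-phase genes 1 was higher and 2 lower, with a median of 0.07. Top2a, the topoisomerase that untangles chromosomes, had 1060 and 2779 counts, Nusap1, a spindle protein, 424 and 1797, and Ccnb1, cyclin B1, 1192 and 2593. Tpx2 and Aurka, partners at the spindle pole, had 136 and 188 counts with PBS and 1162 and 1072 with treatment. Cdk1, Birc5 and Cdc20 had ratios between -0.07 and -0.06, and Mki67 (Ki-67) one of 0.95. Pcna, the replication clamp, had a ratio of 0.06, and Prim1, a primase subunit, was lower with 1042 and 336 counts. The single lower mitosis gene, Kif20a, had 272 counts with PBS and 0 with treatment.

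Ribosomal protein genes lay at the other end of the range from the interferon lists. This family and the other protein families named in this paragraph were chosen after their values were seen. Of 82 measured cytosolic ribosomal protein genes 1 was higher, 21 lower and 60 neither, with a median of -0.76. The lower share, 25.6%, was near the 25.4% of all genes, and the higher share was 1.22%, beside 18.2%. Among the 76 well counted, 74 had ratios below 0 and 16 were lower (21.1%, beside 5.79% of all well-counted genes). The summed level of the family's genes was 91658 CPM with PBS and 61668 CPM with treatment. Their share of all counts was 9.07% and 6.23%. Single genes ranged from Rpl7l1 at 0.44 and Rpl4 at 0.04 to Rps21 at -1.65, with 1137 and 366 counts. Mitochondrial ribosomal proteins had a median of -0.17 over 77 genes, and proteasome subunits one of -0.13 over 37. The annotation term with the lowest median was "cytoplasmic translation", at -0.73 over 76 well-counted genes.

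Nuclear-encoded genes of the respiratory chain were also below 0, with 0 higher and 4 lower of 23 and a median of -0.40. Ndufa1, a small subunit of complex I, had 16194 and 7379 counts, and Cox7c and Atp5e, small subunits of cytochrome oxidase and ATP synthase, had ratios of -1.04 and -1.02. Larger subunits did not go one way. Uqcrc1, Ndufa9 and Atp5b stood at 0.49, 0.50 and 0.32 and Atp5a1 at 0.01, but Uqcrc2 at -0.13, Sdha at -0.19 and Ndufv1 at -1.38. Only 5 of the 23 genes had ratios above 0. All 10 measured mitochondrially encoded genes had ratios below 0, with a median of -0.45 and 1 lower. Glycolysis and hypoxia genes had a median of -0.07 with 3 of 21 higher and 1 lower, and the enzymes Aldoa, Eno1, Pkm and Ldha lay between -0.27 and 0.11. Heat-shock chaperones and the unfolded protein response had medians of -0.03 and 0.17. In the latter list Asns, asparagine synthetase, had 409 and 1 counts (log2 ratio -8.69, interval from -14.00 to -6.21).

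The ratio moved with gene length. Over well-counted genes the median was -0.55 for the 149 genes listed below 1000 bases, -0.18 from 1000 to 1999 bases, and 0.16 for the 944 genes of 8000 bases or more. The median listed length was 1805.5 bases for the well-counted ribosomal protein genes, 2239 for the respiratory chain genes and 3640.5 for the interferon members. After the length trend was removed, the ribosomal median was -0.56 with 10 lower in place of -0.74 with 16, and the respiratory chain median was -0.31 with 1 lower in place of -0.40 with 4. The well-counted interferon members had a median of 0.85 with 26 higher after removal, beside 0.94 with 31 before. None of the 8 well-counted NK-type receptor genes was called after removal, beside 2 lower before, and the cytotoxic list had 2 higher and 2 lower genes in place of 3 and 3. RNA integrity and the size of fragments are not in the files, and their part in the trend was not tested.

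**Figure D5:**
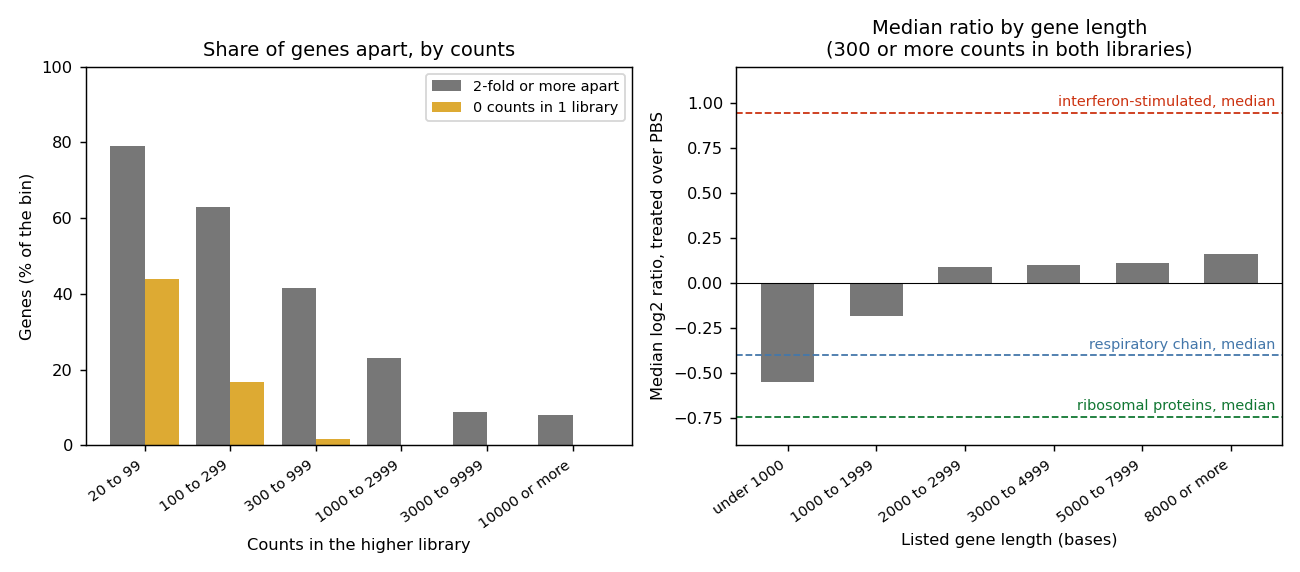
Left, share of genes (%) called (grey) and with 0 counts in a library (yellow), by counts in the higher library; the first pair of bars stands at 79.1% and 43.9%. Right, median log2 ratio of well-counted genes by listed length, from -0.55 below 1000 bases to 0.16 at 8000 bases or more, with dashed lines for the well-counted medians of the interferon lists (0.94), respiratory chain (-0.40) and ribosomal proteins (-0.74).

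Of the 15 well-counted genes with the highest lower interval limit, 5 belonged to the interferon lists: Rtp4, Ifit3, Igtp, Irf7 and Isg15. Cdkn1a ranked among them too, as did Cxcl10, an interferon-induced chemokine for CXCR3 that recruits T cells, with 309 and 1359 counts, and Trafd1, a feedback regulator of innate signalling, with 542 and 2402. Also in this set were Vps26c, a subunit of an endosomal recycling complex (4.62-fold), Acaa2, a thiolase of fatty acid oxidation (4.24-fold), Sptlc2, a subunit of the enzyme that starts sphingolipid synthesis (4.08-fold), Nusap1, Tmem104 and Akap8l. At 0 with PBS and with most counts under treatment were Rassf7 with 893, Tspan7 with 636, Oasl1, Sanbr with 511 and Prkra, an activator of the kinase PKR, with 497. Rassf7 was thus at least 294-fold higher.

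None of the 15 lowest well-counted genes was in the interferon lists. Serpina3f, a protease inhibitor, was the furthest, with 2108 and 308 counts, 6.92-fold lower. Crabp2, which carries retinoic acid, had 1833 and 334 counts, Insig1, a brake on cholesterol synthesis, 1847 and 344, and Klri2, an NK-type receptor, 3197 and 726. Gzme was among them, with Plac9, Plagl2, Farsb, Nup214, Tmx1, Ramp1, Grhpr, Ttc33, Errfi1 and Tm4sf1, between 5.22-fold (Plac9) and 3.67-fold (Tm4sf1) lower. At 0 with treatment and with most counts under PBS were Asah1, the lysosomal acid ceramidase, with 1163, Fancg with 697, Nsdhl with 640, Dph5 with 591 and Cep19 with 586. Asah1 was at least 392-fold lower.

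Each marker list of other cells summed to less than the T cell markers, at 14349 and 14777 CPM, and these lists did not go one way. Some of their sums, such as that of macrophages, were above the sum of the Ifit genes, 70.5 and 399 CPM. Of 14 macrophage markers 13 were measured, with 1 higher and 5 lower, and their sum was 959 CPM with PBS and 863 CPM with treatment, most of it Lyz2 (11946 and 10445 counts). Adgre1, which encodes F4/80, had 334 and 0 counts and Ms4a7 310 and 1, but Fcgr1 had 7 and 341, and C1qb and C1qc had ratios of 0.37 and 0.36. MHC class II genes of antigen-presenting cells summed to 570 and 367 CPM with 2 of 6 measured lower, and fibroblast markers to 238 and 158 CPM with 4 of 7 measured lower and 1 higher. Ms4a1 of B cells, Ncr1 of NK cells, Ly6g of neutrophils and Krt8 and Krt19 of epithelium had 0 counts in both libraries, but other markers in these lists were present. Of 8 B cell markers 2 were measured, 1 higher and 1 lower, and the list summed to 4.99 and 7.39 CPM. Neutrophil markers had 2 of 8 measured, 1 of them lower, and summed to 24.7 and 8.73 CPM. Epithelial markers had 1 of 7 measured, which was lower, and summed to 5.85 and 0.589 CPM. For NK cells 5 of 7 were measured, with 2 higher (Gzma and Eomes, which CD8+ T cells also make) and Klrb1c lower, and they summed to 831 and 1117 CPM. Of 10 dendritic cell markers 7 were measured, with 2 higher and 3 lower, and they summed to 950 and 1479 CPM. Most of that sum was Ccr7, with 905 and 1416 CPM, which T cells also make, and Itgax had 481 and 901 counts. Cd209a had 7 and 219 counts and Xcr1 0 and 70, while Flt3, Zbtb46 and Fscn1 had 24, 120 and 190 with PBS and 0 with treatment, and Clec9a, Batf3 and Ccl22 had 0 in both. Monocyte markers summed to 2306 and 3143 CPM, nearly all from Ly6c2, which CD8+ T cells also make. Haemoglobin and other erythroid markers summed to 452 and 614 CPM. The part of these cells in the lists above, interferon-stimulated genes included, was not tested.

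In the dendritic cell libraries of the same series the interferon lists had a median of 1.03 over 105 measured genes, with 54 higher and 13 lower, beside 1.22, 65 and 4 in T cells. The backgrounds differed: over all genes that passed the filter, 2014 of 11058 were higher and 2808 lower in T cells. In dendritic cells 3125 of 10316 were higher and 4307 lower. Rtp4, Ifit3, Irf7 and Cxcl10 had ratios of 2.47, 2.20, 2.18 and 1.51 there, all called higher in both cell types. Isg15 and Igtp were not called in dendritic cells, with ratios of -0.88 and -0.50. Ribosomal proteins stood the other way, with a median of 1.79 in dendritic cells and -0.76 in T cells, and the p53 list had medians of -0.40 and 0.33. These differences between the cell types were not tested.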

How the data were processed

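BGI extracted the RNA and made and sequenced the mRNA libraries, per the labels' protocols. For the steps from reads to table the submitters' processing notes list, without roles, genome build GRCm39 and the tools DESeq2 1.24.0, HISAT2 2.0.4, R 3.3.1 and RSEM 1.2.12; their order and use are not given in the sources here. The authors deposited read counts per gene in whole numbers, a gene length in bases, and FPKM, which are counts scaled to that length and to the counted reads. Over 22819 values the deposited FPKM equalled the count so scaled, within a relative difference of 1.28e-07. In the T cell file, 2 columns of 1 further PBS library matched no sample and were left out.

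Libraries were scaled with TMM (edgeR 4.0.16, R 4.3.3), and log2 ratios carry exact conditional binomial (Clopper-Pearson) 95% intervals. A library at 0 was set to 3 counts, a fold at that floor is a bound, and such genes enter list medians at it. No test with a p-value was made, since each group has 1 library. The 35 programme lists and 18 marker lists hold 669 genes, 659 of them listed; the genes compared, the lists and the rule for named genes were chosen with earlier results of these data known. Named were the 15 highest and 15 lowest well-counted genes by the interval limit nearer 0, list members, and the 5 genes each way at 0 in a library with most counts in the other. The ranked and the 0-count sets left out gene models, antigen receptor segments, and ribosomal protein or mitochondrially encoded genes. Alternatives were total-count CPM, DESeq2 1.42.0 size factors, upper quartile, deposited FPKM, centring on the median, removal of a lowess trend on length, and count minimums of 1, 100, and 300 in both libraries. The calling was tried on simulated counts with counting error only, and changes were set only in genes with 300 or more expected counts. That trial held no library-to-library spread and no changed genes of low counts, so it does not cover these. Some genes counted in the lists and ranked sets are not reported here by name. Promoters came from RefSeq (GRCm38.p6), matched by symbol.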

Additional observations from a re-analysis of the deposited data

Results flagged for a closer look

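Of 273 genes that were well counted in all 4 libraries of the series and named in the lists or by rank, 10 were called in opposite directions in the T cell and dendritic cell comparisons. Calls in dendritic cells were common, with 3125 higher and 4307 lower of all 10316 genes that passed the filter there. How many genes outside the 273 were called in opposite directions is not given here. The cell types were not compared by a test, each has 1 library per group, and whether the difference would recur is not known. Higher in treated T cells and lower in treated dendritic cells were Cdkn1a (log2 ratios of 2.62 and -1.27), Ifi35 (1.505 and -1.65), Ube2l6 (1.47 and -2.43) and Sptlc2 (2.03 and -1.32). Lower in treated T cells and higher in treated dendritic cells were the small respiratory chain genes Atp5e (-1.02 and 3.41), Cox7c (-1.04 and 3.93) and Ndufa1 (-1.15 and 2.78). The same held for the receptor adaptor Hcst (-1.14 and 1.29), the immediate-early gene Ier5 (-1.05 and 3.56) and the interleukin-33 receptor gene Il1rl1 (-1.77 and 2.57). The T cell calls of Atp5e, Cox7c, Ndufa1 and Hcst ended after removal of the length trend, with ratios of -0.93, -0.72, -0.33 and -0.59. That of Atp5e also ended under total-count scaling.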

How the results depend on the processing

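Across 6 other scalings or corrections and 3 other count minimums, the interferon lists together kept a positive median, from 1.14 to 1.25 for the scalings and corrections, beside 1.22. With 300 or more counts in both libraries that median was 0.94 over fewer genes. They had 58 to 65 members called higher and 4 lower under each scaling. Over all genes that passed the filter 2014 were higher and 2808 lower, and over well-counted genes upper-quartile scaling gave 325 higher and 405 lower in place of 420 and 307. With 300 or more counts in both libraries 5 marker medians turned positive, on 2 to 5 genes each: plasmacytoid dendritic cells to 0.25 from -1.71, fibroblasts to 0.29 from -2.74, NK cells to 0.35 from -0.31, macrophages to 0.36 from -0.56 and monocytes to 0.48 from -0.89. The cytokine and heat-shock medians, both near 0, changed sign too. Of the other list and gene values under these settings, 477 were classed as the same, 141 as moved and 2 as reversed. A value classed as moved need not have changed. The oligoadenylate synthetase median was so classed at a minimum of 1 count, where it was 3.59 as in the main setting. Leaving out a replicate was not possible, as each group has 1 library. No paired analysis was possible because each T cell group has 1 library, and the sample titles share no replicate number. Depth limits the genes below 300 counts most, and library-to-library spread cannot be estimated.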
